A study of Sus scrofa with 11 samples.

Results

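Neutrophils are phagocytes that leave the blood and enter a wound early, and they persist in wounds that heal poorly. Their production and survival are driven by G-CSF, the product of CSF3, through its receptor CSF3R, and their path through tissue is guided by chemoattractant receptors such as FPR1 and FPR2. They carry granules filled with antimicrobial proteins, among them myeloperoxidase (MPO), lactoferrin (LTF) and the peptidoglycan-binding protein PGLYRP1. Many granule genes are transcribed in bone marrow precursors, and the mature cell keeps the protein after much of the transcript is gone.

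Levels of 10 neutrophil genes were followed in full-thickness skin wounds of Yucatan minipigs, by matching the gene names CSF3R, CSF3, FPR1, FPR2, MPO, LTF, PGLYRP1, ARG1, PADI4 and AQP9 to the expression values. The 8 names other than FPR1 and FPR2 each matched 1 of the 30376 genes, and FPR1 and FPR2 are not analysed here. The study asked how day 10 wounds of a diabetic animal differ in gene expression from those of a non-diabetic animal. The diabetic group held 7 wounds of 1 female minipig made diabetic with streptozotocin (STZ), whose insulin was stopped before wounding, and the non-diabetic group held 4 wounds of 1 female minipig without diabetes. Each wound was a dorsal punch wound and gave 1 poly(A) RNA library. Diabetes and animal cannot be told apart in this design, and every p-value below measures the spread between wounds of 1 animal per group. Wounds are named by group and replicate number.

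Reads on genes numbered 28314785 to 40168372 in the diabetic libraries and 32961018 to 36872400 in the non-diabetic libraries. Levels are in FPKM, fragments scaled to gene length and library size, so they can be compared between genes. The library size behind these values was not the number of reads on genes, being above it in some libraries and below it in others. It was 44655870 in diabetic wound 2, with 37922563 reads on genes, and 28615484 in non-diabetic wound 1, with 33516206. How it was set is not given in the sources used here. In whole-wound RNA, fewer cells of a type and less RNA per cell cannot be told apart. Diabetic wound 4 and non-diabetic wound 1 stood apart from the rest of their groups. The summed level of 19 keratinocyte genes was 71.3 FPKM in diabetic wound 4 against 3425 to 8064 in the other diabetic wounds, and 370.0 FPKM in non-diabetic wound 1 against 2452.5 to 4330.3 in the other non-diabetic wounds. In 18 of these 19 genes the 2 wounds were each the lowest of their group, which held for 14.8% of all genes tested. They are called the epidermis-poor wounds here, and the fold change of each member is given with and without them.

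The promoters of CSF3R and ARG1 are shown because these genes shared their highest diabetic wounds, wound 1 only narrowly for CSF3R, as described further on. Each sequence holds 300 bases of the Sscrofa11.1 genome on the gene's strand, 250 before the annotated RefSeq start and 50 from it, with matches to the searched motifs in capitals. They cover chr6:92565749-92566048 for CSF3R and chr1:32028934-32029233 for ARG1, both on the minus strand.
CSF3R: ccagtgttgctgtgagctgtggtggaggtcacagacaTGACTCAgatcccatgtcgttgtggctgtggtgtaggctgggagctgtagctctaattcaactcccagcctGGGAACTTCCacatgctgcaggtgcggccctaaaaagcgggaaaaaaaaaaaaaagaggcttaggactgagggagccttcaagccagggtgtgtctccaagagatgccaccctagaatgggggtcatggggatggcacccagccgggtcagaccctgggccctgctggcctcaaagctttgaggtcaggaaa
ARG1: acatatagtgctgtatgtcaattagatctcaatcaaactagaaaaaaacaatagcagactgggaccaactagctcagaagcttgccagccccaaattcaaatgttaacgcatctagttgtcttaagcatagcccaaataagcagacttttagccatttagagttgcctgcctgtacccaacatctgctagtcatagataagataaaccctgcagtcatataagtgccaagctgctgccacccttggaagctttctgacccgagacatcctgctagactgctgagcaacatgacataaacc
Both strands were searched for a C/EBP motif (TTNNGNAA), a PU.1 motif (GAGGAA), an AP-1 motif (TGANTCA), the NF-kB consensus motif, an octamer (ATTTGCAT) and a TATA box (TATAAA). C/EBP and PU.1 proteins are transcription factors of myeloid cells, and NF-kB and AP-1 act in inflammatory signalling. The CSF3R window held an AP-1 match at -213 and an NF-kB match at -142, and the ARG1 window held none of the searched motifs. Of 20659 promoter windows of the same length, 36.1% held the C/EBP letters, 26.1% the PU.1 letters, 1.47% the octamer, 6.35% the AP-1 letters, 11.6% the TATA box and 16.2% the NF-kB motif. These matches are letters in a window and do not show binding.

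Across the 8 matched genes, ARG1, CSF3R and LTF had the highest mean levels. MPO, PGLYRP1 and PADI4 were low in most wounds, reaching 0.5 FPKM in only 2, 3 and 3 libraries. Ordered by the median of the diabetic wounds, CSF3R stood at 5.19 FPKM, LTF at 3.56, ARG1 at 3.26, AQP9 at 0.842, CSF3 at 0.670, PADI4 at 0.462, PGLYRP1 at 0.348 and MPO at 0.253. In the non-diabetic wounds the order of the medians was ARG1 at 20.4 FPKM, CSF3R at 4.19, AQP9 at 1.25, LTF at 0.618, CSF3 at 0.580, MPO at 0.240, PADI4 at 0.151 and PGLYRP1 at 0.124. Neighbours in either order overlapped in their ranges over wounds, except CSF3R and AQP9 in the non-diabetic wounds.

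Diabetic and non-diabetic wounds were compared on log2(FPKM + 0.5) with limma for genes with at least 0.5 FPKM in at least 4 libraries, and a gene was called at an adjusted p under 0.05 with an absolute log2 fold change over 0.5. CSF3R, CSF3, LTF, ARG1 and AQP9 passed this filter, and MPO, PGLYRP1 and PADI4 did not. None of the 5 tested genes was called (0 of 5), where 3.00% of the 13956 genes tested were called in either direction, 1.35% higher and 1.66% lower in diabetic wounds. At an unadjusted limma p under 0.05 the count was 1 of 5, AQP9, against 18.4% of all genes tested. The median log2 fold change of the 5 genes was 0.21, against 0.01 over all genes tested, and it was 0.07 without the epidermis-poor wounds. Because the fold changes are on the log2(FPKM + 0.5) scale, they understate the change of low genes.

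**Figure D1:**
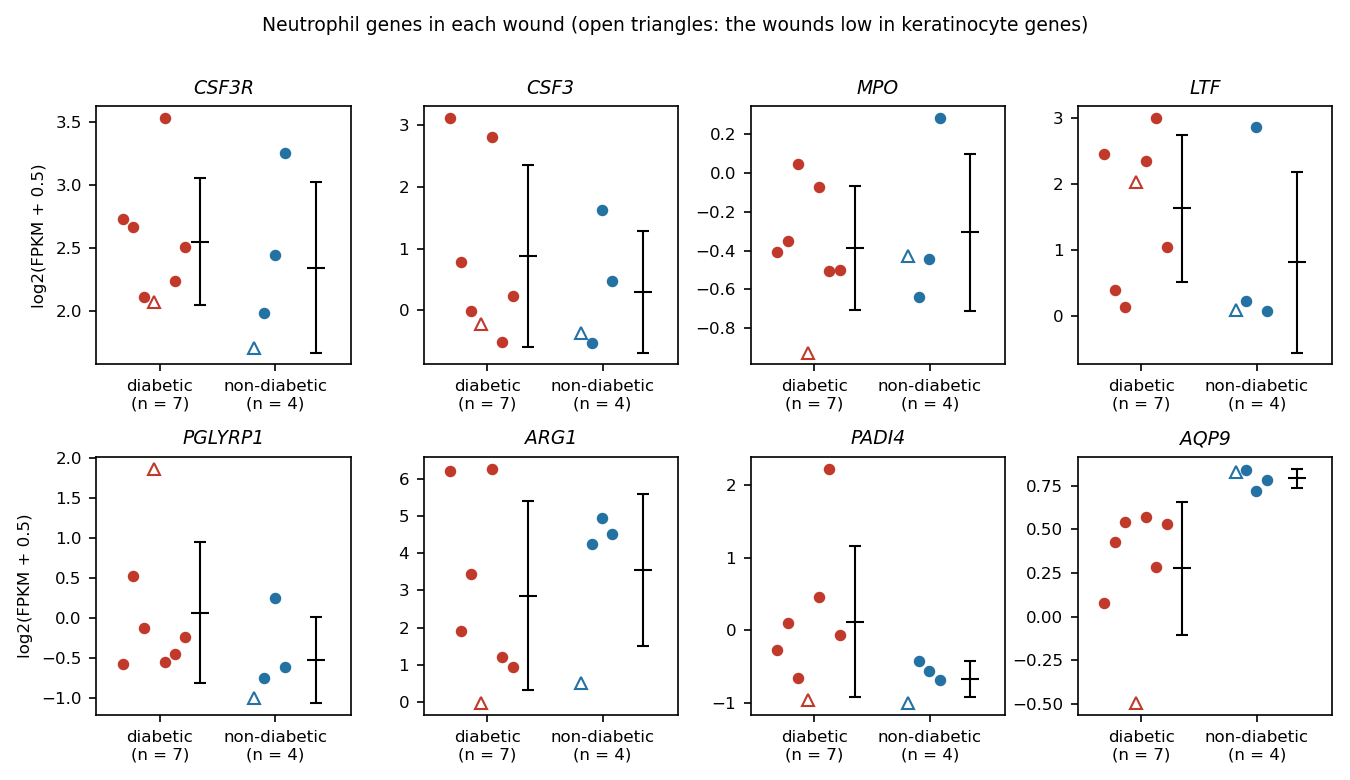
Level of the 8 matched genes in each wound, as log2(FPKM + 0.5), with 7 diabetic wounds in red and 4 non-diabetic wounds in blue. Open triangles mark the epidermis-poor wounds, bars give the mean and SD, each panel has its own axis, and the groups overlap in every panel except AQP9.

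CSF3R encodes the G-CSF receptor and lies on chr6:92550159-92565798 on the minus strand. Its level ran from 3.70 to 11.06 FPKM over the diabetic wounds, with a median of 5.19, and was 2.75, 3.45, 4.92 and 9.01 FPKM in non-diabetic wounds 1 to 4. The groups overlapped almost throughout, and in each group the epidermis-poor wound was the lowest and a single wound, diabetic wound 5 or non-diabetic wound 4, was well above the rest. The log2 fold change was 0.21 with a standard error of 0.32 and a 95% interval from -0.50 to 0.91 (adjusted p = 0.795, limma). Without the epidermis-poor wounds it was 0.07 (adjusted p = 0.937, limma), and without non-diabetic wound 1 alone it was -0.0084. A non-coding gene on the opposite strand, LOC102167570, overlaps CSF3R. It had at most 14 reads in any wound, against 270 to 1240 for CSF3R, and the strand setting of the counting is not given in the sources used here.

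CSF3 encodes G-CSF itself, which is made by stromal, epithelial and myeloid cells rather than by neutrophils alone, and lies on chr12:22333445-22335949. Over the diabetic wounds its level ran from 0.199 to 8.11 FPKM with a median of 0.670, and non-diabetic wounds 1 to 4 had 0.274, 0.197, 2.59 and 0.887 FPKM. Diabetic wounds 1 and 5, at 8.11 and 6.47 FPKM, were far above the other 5 diabetic wounds, whose highest value was 1.22, so the group's SD of 3.32 exceeded its mean of 2.50. The log2 fold change was 0.58 (95% interval -1.04 to 2.205, adjusted p = 0.735, limma), and it was 0.54 without the epidermis-poor wounds (adjusted p = 0.802, limma). Without diabetic wound 1 it was 0.21, and without non-diabetic wound 3 it was 1.02.

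LTF encodes lactoferrin, an iron-binding protein of the secondary granules that glandular epithelia also secrete, and lies on chr13:29413886-29445751. The diabetic wounds ran from 0.5997 to 7.45 FPKM with a median of 3.56, and non-diabetic wounds 1 to 4 had 0.563, 0.673, 6.78 and 0.556 FPKM. Diabetic wounds 1, 4, 5 and 6 and non-diabetic wound 3 formed a high set between 3.56 and 7.45 FPKM, and the other wounds stayed at or below 1.56. The log2 fold change was 0.81 with a 95% interval from -0.65 to 2.28 (adjusted p = 0.572, limma). It was 0.50 without the epidermis-poor wounds (adjusted p = 0.801, limma). With 1 wound left out it ran from 0.57, without non-diabetic wound 4, to 1.49, without non-diabetic wound 3.

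ARG1 encodes arginase 1, a granule enzyme of human neutrophils that macrophages and epidermal cells can also express, and lies on chr1:32006035-32028983. It had the widest range of the 8 genes. Over the diabetic wounds it ran from 0.476 to 76.9 FPKM with a median of 3.26, and non-diabetic wounds 1 to 4 had 0.913, 18.6, 30.3 and 22.2 FPKM. Diabetic wounds 1 and 5 were at 73.1 and 76.9 FPKM and above every non-diabetic wound, the other 5 diabetic wounds were at or below 10.4, and the epidermis-poor wound was the lowest of each group. The log2 fold change was -0.70 with a 95% interval from -3.61 to 2.21 (adjusted p = 0.833, limma). It was -1.23 without the epidermis-poor wounds (adjusted p = 0.670, limma) and -1.72 without non-diabetic wound 1 alone, while the arithmetic means, 23.9 FPKM in diabetic and 18.0 in non-diabetic wounds, were in the opposite order.

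AQP9 encodes an aquaglyceroporin, a membrane channel for water and glycerol found in neutrophils, macrophages and liver, and lies on chr1:113798380-113848452. Its level ran from 0.209 to 0.982 FPKM over the diabetic wounds with a median of 0.842, and was 1.28, 1.29, 1.14 and 1.22 FPKM in non-diabetic wounds 1 to 4. It was the single gene of the 8 whose groups did not overlap, every diabetic wound lying below every non-diabetic wound, an arrangement found with diabetic wounds lower in 2.96% of all genes tested and in either direction in 5.65%. The log2 fold change was -0.52 with a standard error of 0.19 and a 95% interval from -0.93 to -0.10. This did not pass limma's adjustment over all genes, which turned an unadjusted value of 0.0198 into an adjusted p = 0.172. By exact permutation of the wounds (two-sided) p was 0.0182, where 14.4% of 23541 genes with a read gave a p under 0.05.

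AQP9 was measured from few reads, 6 to 34 in a diabetic and 33 to 43 in a non-diabetic wound, on a gene model of 904 bases. Diabetic wound 4 was the lowest by a wide margin, and non-diabetic wound 1, also epidermis-poor, was within the narrow range of its group. Without both of these wounds the groups still did not overlap, and the log2 fold change was -0.37 (adjusted p = 0.243, limma). The exact permutation p was then 0.0238, and the smallest that 84 splits of 6 and 3 wounds can give is 0.0119.

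**Figure D2:**
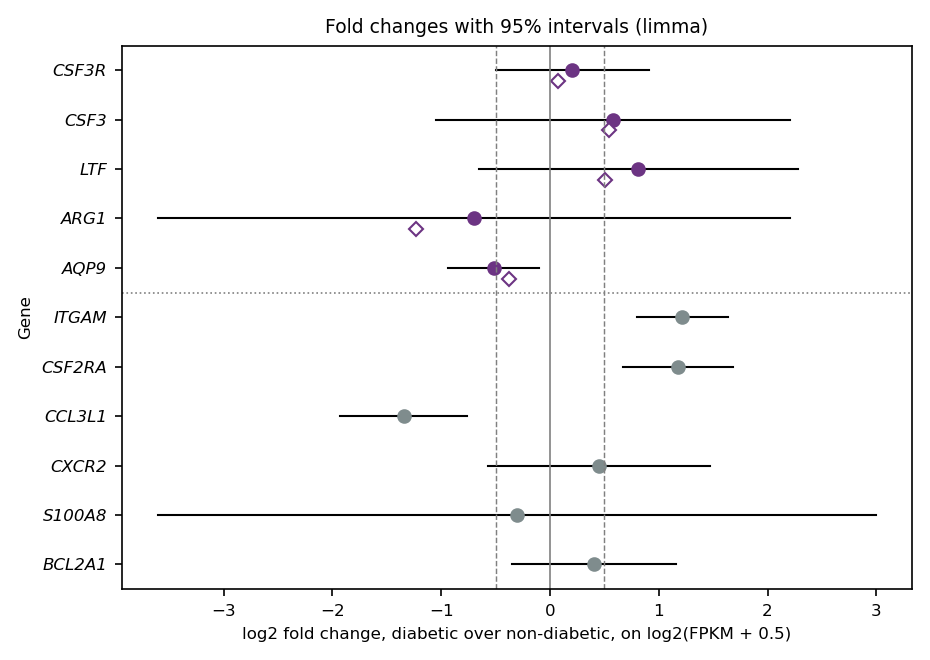
Log2 fold change of diabetic over non-diabetic wounds on log2(FPKM + 0.5) for the 5 tested genes (purple) and 6 genes of other neutrophil-related lists (grey), with 95% intervals from limma. Open diamonds leave out the epidermis-poor wounds and dashed lines mark 0.5 in each direction. The intervals of CSF3R, CSF3, LTF and ARG1 span 0, that of AQP9 runs from -0.93 to -0.10, and those of ITGAM, CSF2RA and CCL3L1 lie beyond 0.5.

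MPO, PGLYRP1 and PADI4 were compared by the exact permutation test alone, whose smallest p over 330 splits is 0.00303. MPO encodes myeloperoxidase, the primary granule enzyme that makes hypochlorous acid, and lies on chr12:34557031-34570091. Its level ran from 0.0259 to 0.533 FPKM in diabetic wounds with a median of 0.253, and was 0.244, 0.142, 0.236 and 0.717 FPKM in non-diabetic wounds 1 to 4. The groups overlapped, with 2 to 51 reads in a diabetic and 11 to 68 reads in a non-diabetic wound (log2 difference -0.08, exact permutation p = 0.715). Without the epidermis-poor wounds the difference was -0.03 (exact permutation p = 0.845). Diabetic wound 4 had the fewest reads, and no difference in MPO transcript was detectable at this depth.

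PGLYRP1 lies on chr6:52318544-52322504 and its product kills bacteria by binding their cell wall. It ran from 0.167 to 3.16 FPKM in diabetic wounds with a median of 0.348, and was 0, 0.0940, 0.687 and 0.153 FPKM in non-diabetic wounds 1 to 4. Diabetic wound 4 was the highest of all 11 wounds, with 67 reads against 4 to 28 in the other diabetic wounds, while the epidermis-poor non-diabetic wound had 0 reads, a count that allows up to 3. The log2 difference was 0.59 (exact permutation p = 0.282) and was 0.13 without the epidermis-poor wounds (exact permutation p = 0.714).

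PADI4 encodes the peptidylarginine deiminase that citrullinates histones when neutrophils release extracellular traps, and lies on chr6:75935909-75966275 on the plus strand. It ran from 0.0139 to 4.16 FPKM in diabetic wounds with a median of 0.462, and was 0, 0.249, 0.177 and 0.124 FPKM in non-diabetic wounds 1 to 4. Diabetic wound 6, with 248 reads, was the highest, the epidermis-poor wound was the lowest of each group, and the groups overlapped. The log2 difference was 0.79 (exact permutation p = 0.164), and it was 0.44 without diabetic wound 6. Without the epidermis-poor wounds it was 0.85 (exact permutation p = 0.179).

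The epidermis-poor wounds were low for some of the 8 genes and not for others. Both were the lowest of their group for CSF3R, ARG1 and PADI4, which is 3 of the 8 genes and 2 of the 5 tested, against the 14.8% of all genes tested. Diabetic wound 4 was the lowest diabetic wound for 5 of the 8 genes, the same 3 together with MPO and AQP9, against 20.3% of all genes tested. Of these 5, MPO and PADI4 were under the filter and so are unlike the genes behind that share. They had 2 reads and 1 read in this wound. For ARG1 the wounds lay 2.71 and 4.01 log2 units below the median of the other wounds of their group, and for CSF3R 0.52 and 0.74 units below. For LTF they lay 0.33 above and 0.14 below, and for PGLYRP1 2.22 above and 0.39 below. Whether the amount of epidermis in a biopsy sets the level of ARG1 or CSF3R was not tested.

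The same wounds were much lower for other genes used as neutrophil markers. S100A8, a subunit of calprotectin that keratinocytes of a wound edge also make, had 11.02 FPKM in diabetic wound 4 against 997 to 2914 in the other diabetic wounds, and 91.2 FPKM in non-diabetic wound 1 against 2302 to 3349 in the other non-diabetic wounds. CXCR2, the receptor for CXCL8 on neutrophils, had 0.215 FPKM against 1.29 to 2.75, and 0.0434 against 1.08 to 2.16. FCGR3A, an Fc receptor of neutrophils, NK cells and macrophages, was instead the highest of its group in both wounds, at 195.0 and 113.0 FPKM.

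**Figure D3:**
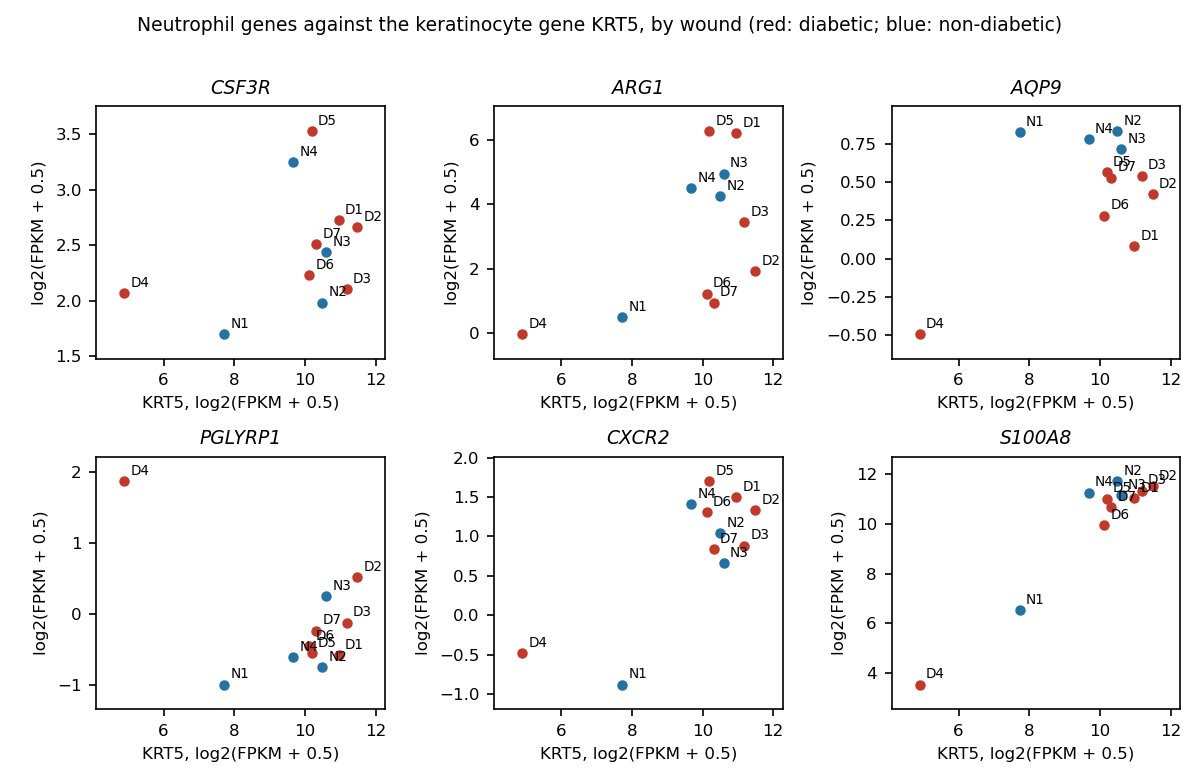
Level of 4 of the followed genes, CXCR2 and S100A8 against KRT5, a keratin of basal keratinocytes, in each wound, both as log2(FPKM + 0.5), with D for diabetic, N for non-diabetic and the replicate number. Wounds D4 and N1 lie at the left of each panel, low for ARG1, CXCR2 and S100A8, apart from each other for AQP9, and at opposite ends for PGLYRP1.

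Some granule transcripts were found in diabetic wound 4 and at few or no reads elsewhere, and others were lowest there. Over all genes tested, this wound was the highest diabetic wound for 17.9% and the lowest for 20.3%. Reads on the pig cathelicidins, antimicrobial peptides of neutrophil granules, numbered 72 for NPG4, 20 for NPG1, 29 for PR39 and 59 for PMAP-23 in this wound. The other diabetic wounds and non-diabetic wounds 1 to 3 had 0 reads on these 4 genes, and non-diabetic wound 4 had 0 to 4. The cathelicidin gene PMAP-36 had 0 reads in all 11 wounds. CD177, a neutrophil surface protein, had 73 reads in diabetic wound 4 and 0 to 8 elsewhere. The cathelicidin genes resemble each other, so reads may be shared or lost between them, and these genes were named after their values had been seen. In the same wound MPO had 2 reads, while ELANE, which encodes the elastase of the same granules as MPO, was at 1.24 FPKM against 0.331 to 1.01 in the other diabetic wounds. LYZ, the lysozyme gene and the most abundant granule gene, had 38.9 FPKM in diabetic wound 4 against 840 to 2263 in the other diabetic wounds. In non-diabetic wound 1 it had 57.9 FPKM against 715 to 1432 in the others of that group. The keratinocyte gene KRT5 was also lowest in these wounds, at 29.2 and 211 FPKM. Which cells gave the LYZ level was not tested. MMP8, a collagenase stored in neutrophil granules, had 0 to 4 reads in any wound.

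**Figure D4:**
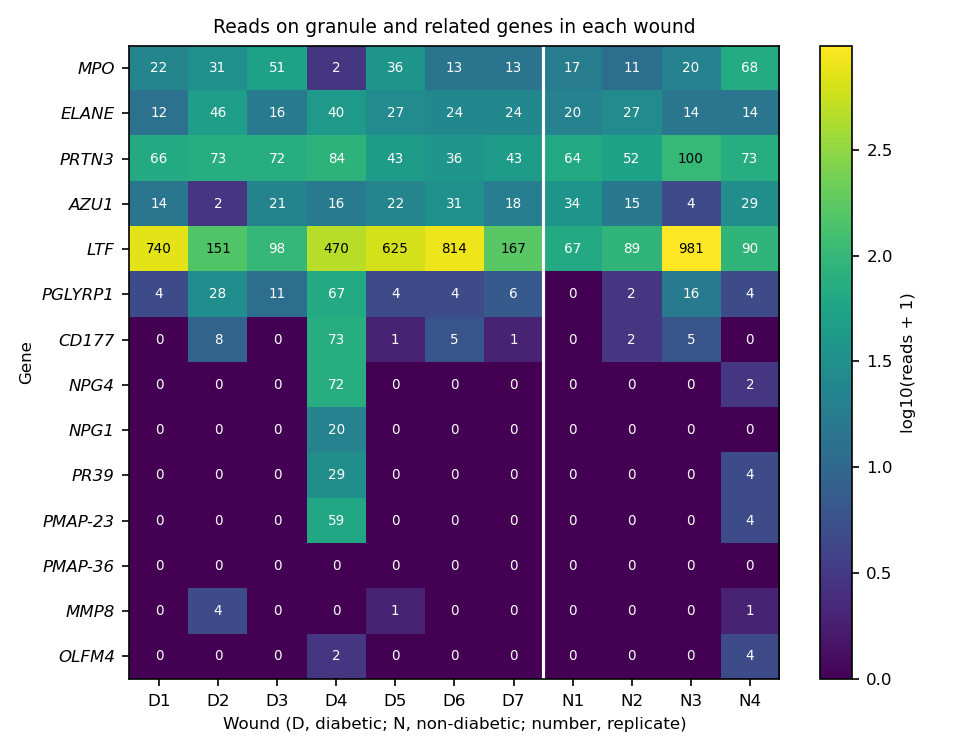
Reads recovered in each wound for 14 granule and related genes, printed in each cell and coloured by log10(reads + 1), with D for diabetic, N for non-diabetic and the replicate number. Wound D4 holds 59 to 73 reads on CD177, NPG4, PMAP-23 and PGLYRP1, and LTF is the gene with the most reads, up to 981 in N3.

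Diabetic wounds 1 and 5 were the 2 highest diabetic wounds for CSF3R, CSF3 and ARG1, which is 3 of the 5 tested genes, against 7.56% of all genes tested. For CSF3R this rests on a near tie, since wound 1 had 6.11 FPKM and wound 2 had 5.84 FPKM. This grouping of wounds was noticed after the values were seen and is a description. The same 2 wounds were the highest diabetic wounds for 10 of 12 tested genes of neutrophil-recruiting cytokines and 10 of 22 neutrophil surface and signalling genes. They were so for only 1 of 11 other granule genes, 0 of 6 oxidase genes and 0 of 16 monocyte and macrophage genes. CXCL8, the main neutrophil chemokine, had 90.6 and 88.6 FPKM in these wounds and 1.51 to 4.79 FPKM in the other diabetic wounds. IL1B had 12.2 and 17.2 FPKM against 0.320 to 0.950, and IL6 had 67.5 and 61.8 FPKM against 3.25 to 12.5. Non-diabetic wound 3 was the highest non-diabetic wound for CSF3, LTF, ARG1 and these 3 cytokines, at 18.6 FPKM for CXCL8. LTF, PGLYRP1, PADI4, MPO and AQP9 did not share the order of diabetic wounds 1 and 5.

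**Figure D5:**
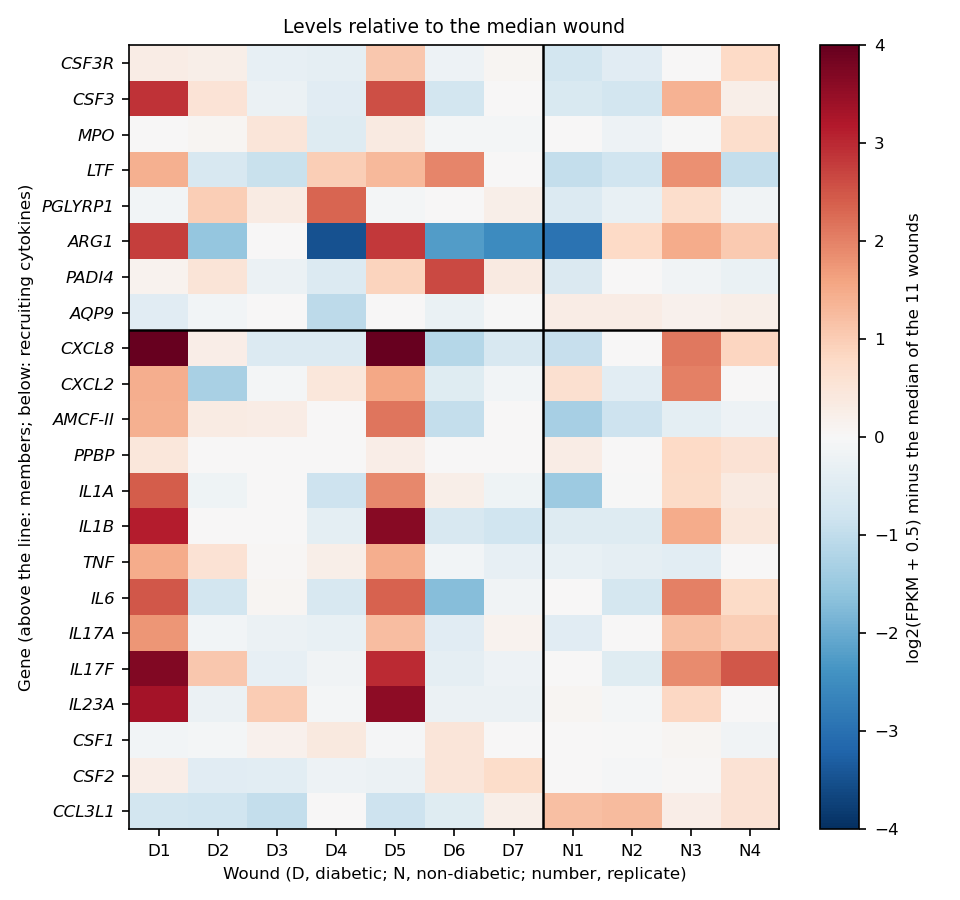
Level of the 8 matched genes (above the line) and 14 neutrophil-recruiting cytokines (below) in each wound, as log2(FPKM + 0.5) minus the median of the 11 wounds, with colours ending at 4 units. Wounds D1 and D5 are red for CSF3, ARG1, CXCL8, IL1B, IL6 and IL23A, and D4 is blue for ARG1 and red for PGLYRP1.

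The 10 genes whose pattern over the 11 wounds was most like that of CSF3R were BCL2A1, CD69, SDS, TNFRSF4, TREM1, SMURF1, PLEK, WDR37, SNAP25 and CCR1, with Pearson's r from 0.838 to 0.925 on log2(FPKM + 0.5). BCL2A1, which encodes a survival protein of the BCL2 family found in leukocytes, had an r of 0.925 and a Spearman's rho of 0.991. Without the 2 wounds farthest from the median of CSF3R, diabetic wound 5 and non-diabetic wound 4, the r of BCL2A1 was 0.944 and that of CCR1 fell to 0.493. Among the other tested members CSF3 ranked 132 of 13955 genes with an r of 0.698, ARG1 303 with 0.626, LTF 4500 with 0.212 and AQP9 6187 with 0.0845. The wounds share an animal within each group, and these values are descriptions.

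Among related genes, higher levels in diabetic wounds were called for ITGAM and CSF2RA, 2 of 22 tested neutrophil surface and signalling genes, and none of the 22 was called lower, where 1.35% of all genes tested were called higher. ITGAM, the integrin subunit CD11b of neutrophils and macrophages, averaged 3.72 ± 1.29 FPKM over the diabetic wounds (SD, n = 7) and 1.26 ± 0.109 FPKM over the non-diabetic wounds (SD, n = 4). Its log2 fold change was 1.22 ± 0.19 (SE), with an adjusted p = 0.00585 by limma. CSF2RA, a subunit of the GM-CSF receptor and the counterpart of CSF3R for that cytokine, averaged 11.3 ± 3.48 FPKM in the diabetic against 4.55 ± 0.928 FPKM in the non-diabetic group (log2 fold change 1.18 ± 0.23, SE, adjusted p = 0.0182 by limma). The call of ITGAM held in all 11 fits that left out 1 wound and without both epidermis-poor wounds (log2 fold change 1.12, adjusted p = 0.00848, limma). That of CSF2RA was lost without non-diabetic wound 2 or 3. It was also lost without both epidermis-poor wounds, where the log2 fold change of CSF2RA stayed at 1.18 (adjusted p = 0.0627, limma). IL1R2, a decoy receptor for interleukin-1 on neutrophils and other cells, ran from 0.776 to 16.7 FPKM in diabetic and 0.459 to 3.63 FPKM in non-diabetic wounds, each time lowest in the epidermis-poor wound. It was called higher without those wounds (log2 fold change 1.85, adjusted p = 0.0438, limma) and was not called with all wounds (1.79, adjusted p = 0.141, limma). CSF2RA was also the 1 gene called among 17 tested family partners of the members. The other 16 were CSF1R, CSF2RB and CSF1 for the colony-stimulating factors, LPO for MPO, MELTF for LTF, PGLYRP2 and PGLYRP3, ARG2, PADI1, PADI2 and PADI3, and AQP1, AQP3, AQP5, AQP7 and AQP11. The closest of these to a call was AQP5 (log2 fold change 1.19, adjusted p = 0.0772, limma), and the most abundant was AQP3, with 221 ± 151 against 84.8 ± 57.1 FPKM (adjusted p = 0.436, limma). Among 12 tested recruiting cytokines CCL3L1, a chemokine gene, was called lower, where 1.66% of all genes tested were. It had 0.850 ± 0.464 against 2.91 ± 1.07 FPKM (log2 fold change -1.34, adjusted p = 0.0194, limma). CCL3L1 was measured from few reads, 5 to 12 in a diabetic and 17 to 35 in a non-diabetic wound. Its call was lost without non-diabetic wound 1 or 2. The call was also lost without both epidermis-poor wounds, where the log2 fold change was -1.31 (adjusted p = 0.0588, limma).

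None of 11 other granule genes and none of 6 subunits of the neutrophil oxidase was called (limma). The groups did not overlap for 2 of the oxidase genes, RAC2 (adjusted p = 0.0567, limma) and NCF4 (adjusted p = 0.125, limma), nor for 1 of the granule genes, SLPI, against 5.65% of all genes tested. SLPI, a protease inhibitor that neutrophils and epithelia secrete, had 159 ± 32.4 against 78.2 ± 40.0 FPKM and an adjusted p of 0.0793 (limma). The most abundant genes of the neutrophil lists were S100A12 and S100A9 for surface and signalling, LYZ and CD63 for granules, CYBA for the oxidase and IL6 and CXCL8 for cytokines, with adjusted p from 0.680 for CYBA to 0.947 for S100A9 (limma). Of the lists for other cells, 3 of 16 tested monocyte and macrophage genes were called higher, CD14, MRC1 and MARCO, and so was 1 of 19 keratinocyte genes, KRT15, against 1.35% of all genes tested. The calls of MRC1 and MARCO held in all 11 fits that left out 1 wound and without both epidermis-poor wounds (adjusted p = 0.0191 for each, limma). Those of CD14 and KRT15 were lost in 9 and 8 of the 11 fits. Both calls were also lost without both wounds (adjusted p = 0.0918 and 0.0892, limma). The log2 fold changes were then 0.80 and 2.62, against 0.76 and 2.50 with all wounds. None was called among 1 eosinophil and basophil, 2 mast cell, 10 fibroblast, 8 endothelial and 3 erythroid and platelet genes. The most abundant genes of these lists were C1QB and C1QC of macrophages, KRT5 and KRT1 of keratinocytes, COL3A1 and COL1A1 of fibroblasts, PECAM1 and CLDN5 of endothelium, and HBB and ITGA2B of erythroid cells and platelets, and none of these was called. The summed macrophage level was 838 to 1849 FPKM in diabetic and 620 to 1091 FPKM in non-diabetic wounds. Of the eosinophil and basophil genes, EPX had 0 reads in all 11 wounds, GATA1 was under the filter, and CCR3 was low but higher in every diabetic wound, at 0.439 to 0.851 against 0.142 to 0.343 FPKM (adjusted p = 0.0593, limma). Of the mast cell genes, CPA3 had 0 reads in all 11 wounds, while MS4A2 had 2.35 to 4.75 FPKM in diabetic and 1.71 to 3.32 FPKM in non-diabetic wounds and KIT had 0.543 to 1.56 and 0.828 to 2.01 FPKM. HPGDS of the same list was under the filter but lower in every diabetic wound, at 0 to 0.348 against 0.374 to 0.586 FPKM. It had 0 to 16 reads in a diabetic and 11 to 21 in a non-diabetic wound. The part of macrophages, mast cells or eosinophils in the levels of ITGAM, CSF2RA, ARG1 and AQP9 was not tested.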

How the data were processed

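RNA from 7 diabetic and 4 non-diabetic wounds was sequenced as directional poly(A) libraries. The authors used fastp, HISAT2 2.2.1, StringTie 2.2.3 and featureCounts 2.0.6 with Sscrofa11.1, as given in the submitters' processing notes and the paper's methods, and deposited FPKM values per gene. The FPKM formula and the strand setting of the counting are not given in the sources used here. Multiplied by gene length and by a library size derived for each library from the steps between values, the deposited FPKM values gave whole reads within 0.05 reads in 100.0% of cases, and the reads quoted here were recovered in this way, with counting error only.

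Members were matched by gene name. Log2(FPKM + 0.5) was compared with limma 3.58.1 (lmFit, eBayes with trend, R 4.3.3), two-sided, with Benjamini-Hochberg adjustment over the 13956 genes with at least 0.5 FPKM in at least 4 libraries. Each member also had an exact permutation test, two-sided, over 330 splits (numpy 2.4.6). The test was tried on simulated data. Alternatives changed the pseudocount, filter, scaling, spread estimate, library weights, block, side letter and wounds included, or used voom on recovered reads. Promoters were read from the RefSeq genome of the same build.

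The members and the 12 context lists were chosen with earlier results of these data known. Genes named were all members, called genes (at most 5) and the 2 most abundant genes of each list, family partners and the 10 genes most like CSF3R. S100A8, CXCR2, FCGR3A, CD177, ELANE, MMP8, IL1R2, IL1B, RAC2, NCF4, SLPI, EPX, CPA3, HPGDS and the cathelicidins were named after their values were seen. The authors' fold changes and p-values, tissue stains and FPR1 and FPR2 were not used here. Promoters of the other members and some genes that the rule names are not reported here.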

Additional observations from a re-analysis of the deposited data

Results flagged for a closer look

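For each of the 8 matched genes, the highest and lowest wound of each group was compared with the others. The measure was Dixon's ratio, the gap to the nearest neighbour as a share of the group's range. It was taken on the log2 scale of the fold changes, so the FPKM values quoted here give other ratios. There were 16 groups, and chance passes about 1 in 20. LTF in non-diabetic wound 3 had a ratio of 0.945, at 6.78 FPKM against 0.556 to 0.673 in the other 3 wounds. ARG1 in non-diabetic wound 1, the epidermis-poor wound, had a ratio of 0.844, at 0.913 FPKM against 18.6 to 30.3 in the other 3 wounds.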

How the results depend on the processing

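None of the 5 tested members was called in the main comparison or under any of 23 alternatives (limma). CSF3, LTF, ARG1 and AQP9 kept their direction throughout, with log2 fold changes from 0.21 to 1.02, 0.44 to 1.49, -1.72 to -0.22 and -0.84 to -0.37 and lowest adjusted p of 0.619, 0.284, 0.518 and 0.112. Leaving out 1 wound at a time gave -0.0084 to 0.51 for CSF3R and -0.19 to 0.11 for MPO, which turned positive without diabetic wound 4 (0.0079) or non-diabetic wound 4. PGLYRP1 and PADI4, each with values under only 15 of the alternatives, stayed higher in diabetic wounds in these, at 0.13 to 1.19 and 0.44 to 1.39.

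The number of all genes called was 419, and it was 822 with library weights and 187 without both epidermis-poor wounds. It was 181 to 483 with 1 wound left out, at its lowest without non-diabetic wound 1, and 248, 199 and 226 without non-diabetic wounds 2, 3 and 4. The cause was not tested. With a replicate block it was 16, but the replicate numbers did not pair the samples, since same-numbered wounds correlated at -0.267, 0.215, 0.0678 and -0.483 and not all above 0.1. Members of low depth such as MPO, with 2 to 68 reads per wound, allow no finer comparison.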
